A study of Mus musculus with 2 samples.

Results

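The genes described here are 9 genes of blood clotting, of the breakdown of clots and of the matrix protein thrombospondin-1, namely Plat, Plau, Plaur, F3, Tfpi, Thbd, Procr, Vwf and Thbs1. They were chosen by name, with earlier results of these data known, and all 9 were found by their Ensembl identifiers among the 55573 genes listed. Expression was measured by RNA-seq of polyadenylated RNA in mesenteric arteries, the resistance arteries that feed the intestine, taken from wild type C57BL/6 mice aged 10 weeks. There was 1 library from control arteries in 5 mM K+ and 1 library from arteries depolarized in 60 mM K+, with 60 min on the label of both, and each library held tissue of 2 mice. In both groups blood was flushed out before treatment and the solutions contained tetrodotoxin, which silences nerves. The methods describe the control segments as cut from the distal side after incubation without perfusion. The rest of the bed was then perfused by pump with 60 mM K+. The study's results instead describe both groups as perfused for 60 min. By the methods, K+, vessel segment, perfusion and time in solution cannot be told apart. The comparison asks which genes change when the membrane of arterial smooth muscle is held depolarized.

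The 5 mM K+ library held 10480918 reads on genes and the 60 mM K+ library 11289598. Read counts were scaled between the libraries with the TMM factors of edgeR (a trimmed mean of gene ratios), and log2(fold-change) compares the scaled 60 mM K+ value with the scaled 5 mM K+ value. CPM are scaled counts per 1000000 reads. Its 95% exact (Clopper-Pearson) counting interval covers counting error only. A gene was called higher or lower where a random-sampling test on the reads gave a q-value under 0.005 and log2(fold-change) lay beyond 1 or -1. That test compares 2 libraries and not 2 conditions. Without replicates, differences between mice or dissections could not be measured, and p-values are left out. The arteries carried all 8 smooth muscle markers, led by Acta2 with 187183 and 199779 reads, and all 12 endothelial markers, led by Pecam1 with 19497 and 25719 reads. In whole tissue, fewer cells of a type and less RNA per cell cannot be told apart.

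Clotting starts when tissue factor (F3), a membrane protein of cells outside the blood stream, meets plasma factor VII, and tissue factor pathway inhibitor (Tfpi) blocks that step. The endothelium restrains clotting through thrombomodulin (Thbd) and the endothelial protein C receptor (Procr), which together let thrombin activate the anticoagulant protein C. Clots are dissolved by plasmin, which is made from plasminogen by the tissue-type activator (Plat) and the urokinase-type activator (Plau), the latter held at the cell surface by its receptor (Plaur). Von Willebrand factor (Vwf) tethers platelets to a damaged wall, and thrombospondin-1 (Thbs1) is a matrix glycoprotein of platelets and vessel wall cells that also activates latent TGF-β.

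Plat, Plau, Plaur and Procr rose in 60 mM K+, by 2.51-fold to 3.94-fold. F3 had fewer reads and a log2(fold-change) of -0.41, Tfpi was at -0.0023, and Thbd, Thbs1 and Vwf lay between 0.28 and 0.72. Thus 4 of 9 genes were called higher, beside 2.11% of the 21374 genes with a read, and 0 of 9 were called lower, beside 1.10%. All 9 genes had at least 500 reads in both libraries together; among the 6549 genes with that many, 3.24% were called higher and 0.122% lower. The 4 genes called are on the study's own list of differentially expressed genes, which was drawn from these libraries. The 9 genes were also chosen with earlier results of these data known. Neither the count, its excess over all genes nor the direction is therefore independent evidence. The test here called 452 genes higher and 235 lower, far more than the study listed at the same stated thresholds. None of the cell type markers called here is on the study's list. With scaling by Ppia and Hprt, the reference genes of the study's qPCR, or with an assumed coefficient of variation between libraries of 0.2, the calls of Plat and Plau were lost and those of Plaur and Procr kept; with 0.4 none of the 4 was called. The counting interval lay wholly above 0 for 7 of the 9 genes and wholly below 0 for 1, beside 41.4% and 21.4% of genes with at least 500 reads. The median log2(fold-change) was 0.72 for the 9 genes and 0.082 for the 6549 genes, whose central 95% ran from -0.52 to 1.11. The reads of the 9 genes summed to 2558 CPM in 5 mM K+ and 4036 CPM in 60 mM K+.

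**Figure D1:**
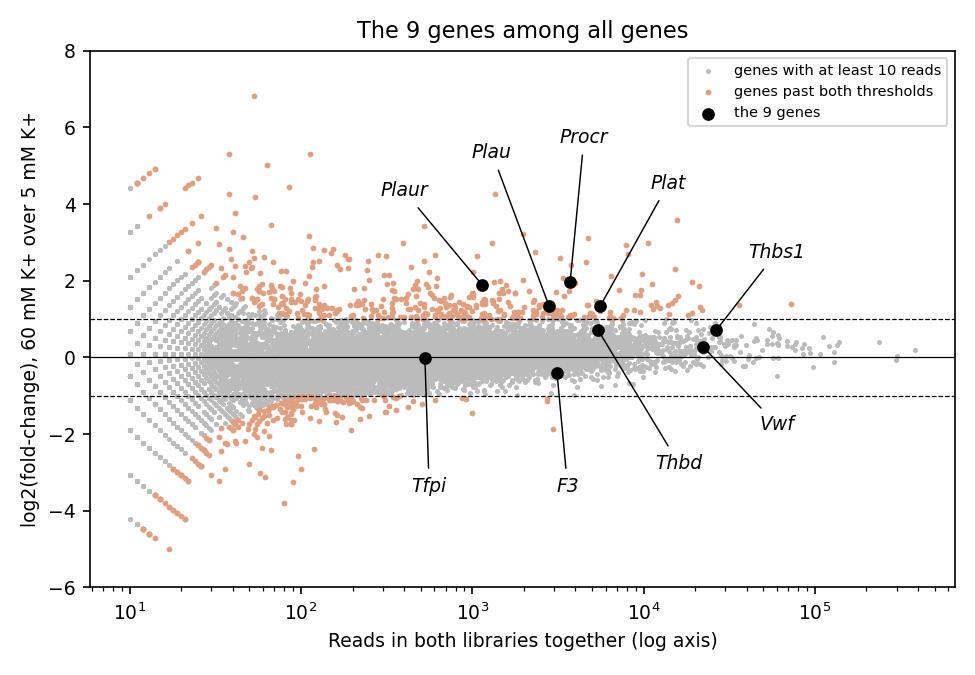
Log2(fold-change) against the number of reads in both libraries together (log axis) for every gene with at least 10 reads, with the 9 genes in black and genes past both thresholds in orange. Plat, Plau, Plaur and Procr lie above the dashed line at 1, and the other genes named lie between -0.41 and 0.72.

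Per length of gene, the deposited FPKM (fragments scaled by gene length and by library total) put Vwf and Thbs1 above the others in both libraries. In 5 mM K+ the level of Vwf was 375 FPKM and that of Thbs1 was 309 FPKM. F3 followed at 153 FPKM, Procr at 71.0 and Plat at 66.5, and the counting intervals of Procr and Plat overlapped. Thbd at 54.9, Plau at 42.1, Plaur at 21.7 and Tfpi at 11 FPKM completed the order, and none of these neighbors overlapped. In 60 mM K+ the order was Thbs1 at 437, Vwf at 393, Procr at 242, Plat at 145, F3 at 99.3, Plau at 92.5, Thbd at 78.1, Plaur at 69.4 and Tfpi at 9.50 FPKM. Only F3 and Plau overlapped as neighbors there, so that F3, above 6 of the genes in the control library, was level with Plau in the depolarized one. The order across genes depends on the length assumed. The deposited values imply 2663 bases for Vwf and 1148 for F3, whereas the longest annotated transcripts are 8834 and 1876 bases. With the summed exon length of GENCODE vM1, 16064 bases for Vwf, the levels of Vwf were 62.2 and 65.2, ranks 4 and 6 of the 9 genes. Differences between the libraries do not depend on this length.

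**Figure D2:**
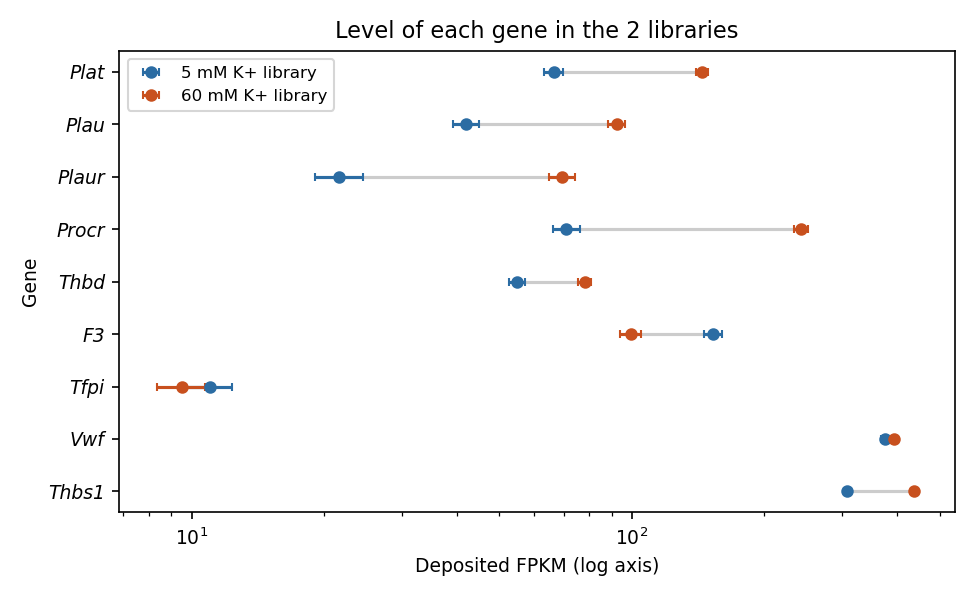
Deposited FPKM (log axis) of each gene in the 5 mM K+ library (blue) and the 60 mM K+ library (orange), with 95% Poisson counting intervals. The orange points of Plat, Plau, Plaur, Procr, Thbd and Thbs1 lie clear to the right of the blue ones, F3 is reversed, and the intervals of Tfpi overlap.

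Among the genes of plasminogen activation, both activators and the receptor rose. Plat (ENSMUSG00000031538; mm9 chromosome 8, 23868216 to 23893319, + strand) encodes the activator that endothelium releases into blood, and had 1667 reads in 5 mM K+ and 3905 in 60 mM K+. This was a log2(fold-change) of 1.33, with counting interval 1.25 to 1.41. Plau (ENSMUSG00000021822; chromosome 14, 21655884 to 21662610, + strand), whose product acts mainly in tissue and cell migration, had 833 and 1973 reads, with log2(fold-change) at 1.35 (1.23 to 1.46). The pair moved almost equally: there were 2.0 reads of Plat per read of Plau in 5 mM K+ and 1.98 in 60 mM K+. The log2 change of that ratio was -0.016, with a counting interval of -0.16 to 0.13.

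Plaur (ENSMUSG00000046223; chromosome 7, 25247519 to 25260892, + strand) rose from 257 to 887 reads, with log2(fold-change) at 1.89 (1.69 to 2.09). Relative to its ligand Plau it had 0.309 reads per read in 5 mM K+ and 0.450 in 60 mM K+, a log2 change of 0.54 (0.31 to 0.78). Among the 6549 genes with at least 500 reads, Plaur ranked 32, Plau 97 and Plat 101 by log2(fold-change). Macrophages also make Plaur, and the 7 macrophage markers matched, of 8 listed, had 527 reads in 5 mM K+ and 446 in 60 mM K+, none at 0. None of them was called, and Lyz2, C1qa and C1qb had the most reads, 160, 119 and 85 in 5 mM K+ and 87, 112 and 104 in 60 mM K+. The markers went both ways, with 3 positive and 4 negative log2(fold-change) values and a median of -0.036. The part of macrophage content in the value of Plaur was not tested.

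Of the other genes of the plasminogen system with at least 10 reads, 0 of 6 were called, and 5 had a positive log2(fold-change). Among all 14829 genes with that many reads, 3.05% were called higher and 1.58% lower, so 0 of 6 says little about these genes. Anxa2, whose product binds plasminogen and Plat at the cell surface, had 3411 reads in 5 mM K+ and 4817 in 60 mM K+, with log2(fold-change) at 0.60. Ratios of 2 genes are taken within a library and so do not depend on how the libraries were scaled to each other.

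In the protein C pathway the receptor rose and its partner stayed below the threshold. Procr (ENSMUSG00000027611; chromosome 2, 155576853 to 155581207, + strand) had 798 reads in 5 mM K+ and 2932 in 60 mM K+. Its log2(fold-change) of 1.98 (1.87 to 2.09) was the highest of the 9 genes and ranked 26 among genes with at least 500 reads. Thbd (ENSMUSG00000074743; chromosome 2, 148230207 to 148233924, - strand) had 2143 and 3281 reads, a log2(fold-change) of 0.72 (0.64 to 0.80), rank 409. The control library held 0.372 reads of Procr per read of Thbd and the depolarized library 0.894, a log2 change of 1.26 (1.12 to 1.40). Protein C itself comes from the liver, and Proc had 0 reads in both libraries.

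F3 and its inhibitor were the members whose log2(fold-change) was at or below 0. F3 (ENSMUSG00000028128; chromosome 3, 121426455 to 121437970, + strand) had 1840 reads in the 5 mM K+ library and 1287 in the 60 mM K+ library, with log2(fold-change) at -0.41 (-0.52 to -0.31). Its rank of 6194 among 6549 genes placed it near the lower end, although within the central 95%. Tfpi (ENSMUSG00000027082; chromosome 2, 84273012 to 84316932, - strand) had 274 and 255 reads, the fewest of the 9 genes, and a log2(fold-change) of -0.0023 (-0.25 to 0.25). Reads of F3 per read of Tfpi went from 6.72 to 5.05, a log2 change of -0.41 (-0.68 to -0.14). Against Thbd, which opposes the clotting that F3 starts, F3 went from 0.859 to 0.392 reads per read, a log2 change of -1.13 (-1.26 to -1.0).

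F3 is known from adventitial cells, and of 7 fibroblast markers 6 had a negative log2(fold-change) and 1 a positive one. The 7 fibroblast markers, led by Col3a1 with 36261 and 24034 reads, had 81760 reads in 5 mM K+ and 63037 in 60 mM K+, with a median log2(fold-change) of -0.29, none called and none at 0. Per 1000 reads of these markers F3 had 22.5 reads in 5 mM K+ and 20.4 in 60 mM K+, a log2 change of -0.14 (-0.25 to -0.036). Over the summed smooth muscle markers the log2 change of F3 was -0.55 (-0.65 to -0.45). Over the summed endothelial markers it was -0.92 (-1.02 to -0.81). Plau, which fibroblasts also make, had 10.2 and 31.3 reads per 1000 fibroblast marker reads, a log2 change of 1.62 (1.5 to 1.74). These ratios of F3 and Plau to markers were chosen after the values were seen. The part of fibroblast content in these results was not tested.

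Vwf and Thbs1, the most abundant of the 9 genes by reads, were not called. Vwf (ENSMUSG00000001930; chromosome 6, 125496792 to 125636697, + strand) had 10480 reads in 5 mM K+ and 11820 in 60 mM K+, a log2(fold-change) of 0.28 (0.24 to 0.31). Scaling by total counts gave 0.066, and scaling by Ppia and Hprt gave -0.22, so the direction of Vwf depends on the scaling. Thbs1 (ENSMUSG00000040152; chromosome 2, 117937612 to 117952869, + strand) had 10528 and 16042 reads, a log2(fold-change) of 0.71 (0.67 to 0.74). Its relative Thbs2 had 239 and 165 reads, a log2(fold-change) of -0.43 (-0.73 to -0.14). The control library thus held 44.1 reads of Thbs1 per read of Thbs2 and the depolarized library 97.2, a log2 change of 1.14 (0.85 to 1.44).

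Platelets carry Vwf and Thbs1 as well. The 6 platelet markers summed to 52 reads in 5 mM K+ and 72 in 60 mM K+, with log2(fold-change) of the sum at 0.57 (0.036 to 1.11), and Gp6 was at 0 in both. Of the 3 markers with at least 10 reads, 1 was positive and 2 were negative. Itga2b, which overlaps AL596258.1 in the annotation, rose from 7 to 45 reads, and without it the sum was lower in 60 mM K+. Pf4, a platelet chemokine singled out after its value was seen, had 21 and 8 reads. The part of platelets in the values of Vwf and Thbs1 was not tested.

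**Figure D3:**
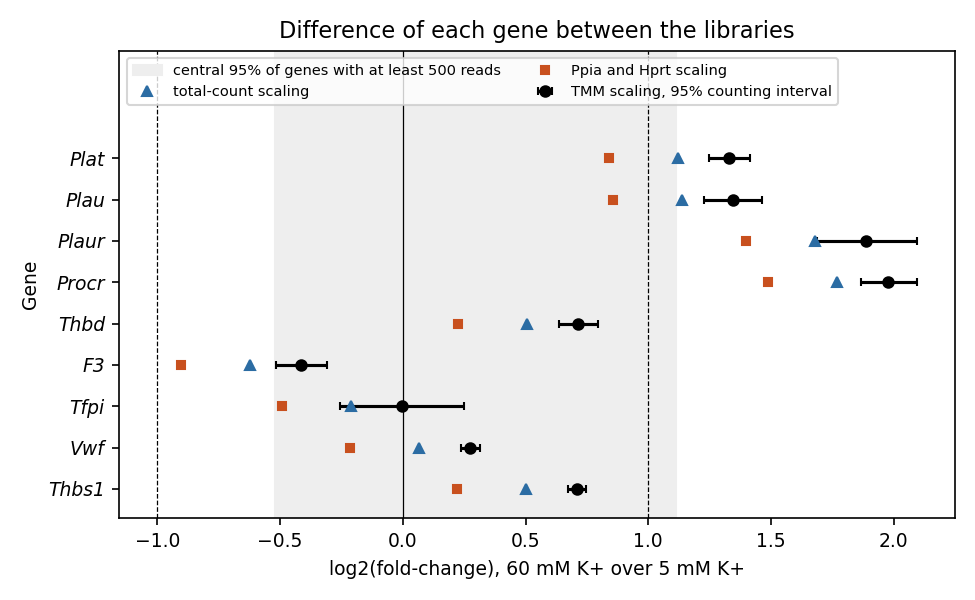
Log2(fold-change) of each gene with TMM scaling and its 95% counting interval (black), with total-count scaling (triangles) and with scaling by Ppia and Hprt (squares); the grey band holds the central 95% of genes with at least 500 reads, -0.52 to 1.11, and applies to TMM scaling. Plaur and Procr lie beyond 1 with each scaling drawn, Plat and Plau fall to 0.84 and 0.86 with Ppia and Hprt, and Vwf changes sign.

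Vwf, Thbd, Procr, Plat and Tfpi are made largely by endothelium, and most of its markers were also higher in the depolarized library with TMM scaling. The median of the markers was 0.18 with total counts and -0.10 with scaling by Ppia and Hprt, so its direction depends on the scaling. The 12 markers summed to 31570 reads in 5 mM K+ and 41698 in 60 mM K+, a log2(fold-change) of the sum of 0.50, with a median of 0.39 over the markers. Pecam1 alone held 19497 and 25719 of these reads. Of the 12 markers 10 were positive and 2 negative, none was at 0, and 1 was called: Kdr, a VEGF receptor, fell from 168 to 73 reads. Per 1000 reads of the summed markers, Procr went from 25.3 to 70.3 reads, a log2 change of 1.48 (1.36 to 1.59), and Plat from 52.8 to 93.6, a log2 change of 0.83 (0.74 to 0.91). Thbd went from 67.9 to 78.7, a log2 change of 0.21 (0.13 to 0.30). Vwf went the other way, from 332 to 283 reads per 1000, a log2 change of -0.23 (-0.27 to -0.18), and so did Tfpi, from 8.68 to 6.12, a log2 change of -0.51 (-0.76 to -0.25). The log2(fold-change) of single markers ran from -1.10 to 0.85, a span that holds the values of Thbd, Vwf and Tfpi. The direction of the ratios of Thbd, Vwf and Tfpi thus depends on the marker used. Relative to Vwf, the log2 change was 1.70 (1.58 to 1.82) for Procr, 0.44 (0.35 to 0.53) for Thbd and -0.28 (-0.53 to -0.023) for Tfpi. Reads of whole arteries do not tell which cells the RNA came from. The study removed the endothelium and found comparable induction of the genes it measured by qPCR. It proposes that the induction was mainly in myocytes, and its primer list held no Procr, Plat, Thbd or Tfpi. The part of endothelial content in the values of single genes was not tested.

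**Figure D4:**
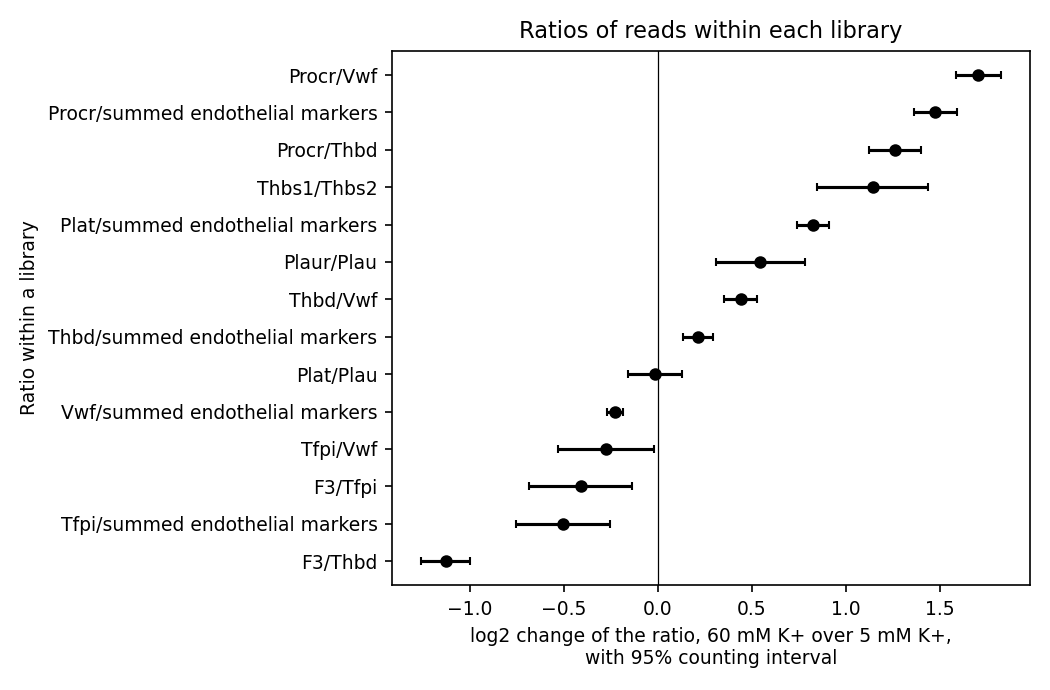
Log2 change, from the 5 mM K+ to the 60 mM K+ library, of ratios of reads of 2 genes or of a gene and the summed endothelial markers, with exact 95% counting intervals. Ratios of Procr lie highest, Plat over Plau lies at -0.016 with an interval that holds 0, and F3 over Thbd lies lowest at -1.13.

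Of 60 other genes of these pathways, 59 were in the tables under the name listed, 40 had a read and 34 had at least 10 reads in both libraries together. Of the 34, 1 was called higher, Nos3, beside 3.05% of the 14829 genes with that many reads, and 0 were called lower, beside 1.58%; the call of Nos3 was lost with total-count scaling. Nos3, the endothelial nitric oxide synthase, whose product keeps platelets at rest, had 1013 and 2025 reads, a log2(fold-change) of 1.10 (0.99 to 1.21). It overlaps Atg9b and Gm15587 in the annotation, and it is on the study's own list. Over the 34 genes the median log2(fold-change) was 0.25, beside -0.0047 over the 14829 genes, with 24 positive and 10 negative.

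Most clotting factors are made by the liver, and 10 of the 16 on the list had 0 reads in both libraries, as did 3 liver markers. A count of 0 allows up to 3 reads, 0.266 CPM in the control and 0.286 CPM in the depolarized library. The fibrinogen genes Fga, Fgb and Fgg and the plasminogen gene Plg, singled out after their values were seen, were among the genes at 0. F13a1, a fibrin cross-linking factor that macrophages also make, led the list with 35 and 43 reads, and F8 had 11 and 16. A list of anticoagulants and related genes, not all of them anticoagulants, had a median log2(fold-change) of 0.24. Of its 7 genes with at least 10 reads, 6 were positive and 1 was negative. Anxa5 was at 0.032, Mmrn2, an endothelial matrix protein, at 0.37, and Pros1, the gene of protein S, at 0.17. The thrombin receptor F2r was at 0.21 and its relative F2rl1 at 0.095.

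Of the 6 other thrombospondins and thrombospondin receptors, all with at least 10 reads, 0 were called and 3 had a negative log2(fold-change). Beside 3.05% called higher and 1.58% lower of all genes with that many reads, 0 of 6 says little. The receptor Cd47 had 917 and 947 reads, a log2(fold-change) of 0.15, and Thbs3, which overlaps Mtx1 in the annotation, was at -0.069. Among genes that act on platelets, Ptgis, the prostacyclin synthase, had 7540 and 10350 reads, a log2(fold-change) of 0.56, and Entpd1, which breaks down ADP, was at -0.044. Of the genes needed to process and export clotting factors, Mcfd2 was at 0.25 and Lman1 at -0.26.

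**Figure D5:**
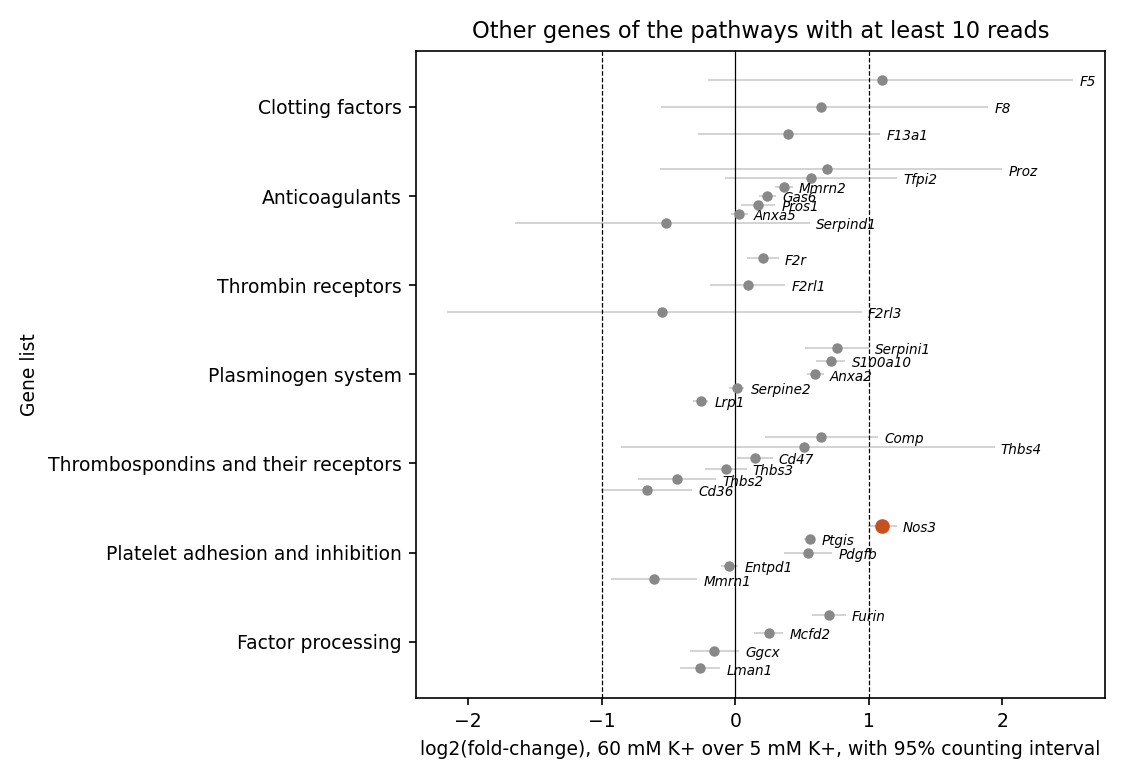
Log2(fold-change) with 95% counting intervals of other pathway genes with at least 10 reads, by gene list; dashed lines mark -1 and 1. Nos3 (orange) is the gene past both thresholds, and intervals are wide for genes with few reads, such as F8 with 11 and 16.

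Promoter sequence was looked up for the 9 genes, and 4 of them had a window in the RefSeq promoter table (GRCm38.p6). These were Plaur, Procr, F3 and Tfpi, the last with 2 windows, and Plat, Plau, Thbd, Vwf and Thbs1 were not in it. A window runs from 250 bases before to 50 bases after an annotated start. The 250 bases before the start are shown 5′ to 3′ on the strand of the gene, with exact matches to the AP-1 motif TGANTCA and to the short cAMP response element TGACG, on either strand, in capitals.
Plaur, chr7:24462233-24462482, + strand: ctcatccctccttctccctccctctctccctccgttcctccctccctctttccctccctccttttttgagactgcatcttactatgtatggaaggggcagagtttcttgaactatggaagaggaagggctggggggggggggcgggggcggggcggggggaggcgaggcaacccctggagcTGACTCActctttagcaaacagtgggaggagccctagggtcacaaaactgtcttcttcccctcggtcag
Procr, chr2:155750967-155751216, + strand: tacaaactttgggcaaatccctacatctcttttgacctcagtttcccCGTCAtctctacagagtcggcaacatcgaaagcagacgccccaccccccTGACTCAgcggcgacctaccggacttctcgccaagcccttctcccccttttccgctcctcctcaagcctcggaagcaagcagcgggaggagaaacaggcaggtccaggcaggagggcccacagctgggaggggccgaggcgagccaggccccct
F3, chr3:121723287-121723536, + strand: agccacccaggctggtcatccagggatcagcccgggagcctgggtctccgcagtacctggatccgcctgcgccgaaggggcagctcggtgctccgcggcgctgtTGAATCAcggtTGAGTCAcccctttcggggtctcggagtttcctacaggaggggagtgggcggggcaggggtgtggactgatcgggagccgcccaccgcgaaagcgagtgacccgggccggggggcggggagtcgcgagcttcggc
The window of Plaur held 1 AP-1 match, TGACTCA, from -69 to -63, and that of Procr held 1, TGACTCA, from -154 to -148. F3 held 2, TGAATCA from -146 to -140 and TGAGTCA from -135 to -129, and the 2 windows of Tfpi held 0. Among all 32851 windows of the table, 7.81% held TGANTCA. The short element TGACG was found in 1 of the 5 windows, that of Procr, as CGTCA on the opposite strand from -203 to -199, and in 20.8% of all windows. The full element TGACGTCA, which contains TGACG, and the NF-kB consensus were found in 0 of the 5 windows, beside 1.79% and 8.46% of all windows. The GC box GGGCGG matched in Plaur, F3 and both windows of Tfpi, beside 35.7% of all windows, and TATAAA in F3, after the start from 44 to 49, and in 1 window of Tfpi, beside 13.6%. A match describes the letters of the window and not a binding site.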

How the data were processed

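Total RNA of the 2 libraries was extracted with TRIzol, treated with DNase and made into poly(A) libraries with a kit that does not mark strand. After alignment, to mm9 by the study's methods, the authors counted reads per gene, and they deposited these raw counts beside FPKM values. The submitters' processing notes list both mm8 and mm9. Per the submitters' processing notes, TopHat2 was version 2.0.12, HTSeq 0.6.1 and edgeR 3.0.8; the gene annotation is not given in the sources used here. The deposited FPKM was scaled by total counts: the ratio of counts to FPKM differed between the libraries by 1.08 for every gene with at least 100 reads in each, as did the totals. From the counts, TMM factors (edgeR 4.0.16, R 4.3.3) gave 1.07 for 5 mM K+ and 0.930 for 60 mM K+. The test on the reads was DEGSeq's random-sampling test, written out from its published formula and run over all genes with a read. It used 0.5 in place of a 0 and Benjamini-Hochberg adjustment. The code was tried on simulated Poisson counts without variation between libraries. That setting cannot show how many false calls the test makes where libraries differ in more than counting error. edgeR's quasi-likelihood test needs replicates and was not run. Ratios of 2 genes have exact conditional intervals. Symbols (32601 identifiers) and mm9 positions come from GENCODE vM1, in which none of the 9 genes overlaps another gene. Its gene models may differ from those used for counting. Promoter windows come from RefSeq on GRCm38.p6.

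Members, gene lists and thresholds were chosen with earlier results of these data known. Named are the 9 genes, called genes and the 2 with the highest mean FPKM of each pathway list, genes of the ratios, and the leading and called marker genes. Genes of the lists that were not matched were Plgrkt, Adgre1 and Hbb-bs. Some listed genes are not reported here by name or drawn, although counts and medians of a list include them. Alternatives were scaling by median of ratios (DESeq2 1.42.0), by upper quartile or by total counts, at least 10 or 50 reads, a q-value from the exact binomial test or from the exact test of edgeR with an assumed coefficient of variation of 0.1, 0.2 or 0.4, the nearest interval end, a q-value of 0.05, and FPKM with pseudocounts of 0.1 and 1. Scaling by Ppia and Hprt, summed exon lengths and the 500-read background were chosen after seeing the data. So were ratios to markers other than endothelial, and ratios of Plau or F3 to endothelial markers.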

Additional observations from a re-analysis of the deposited data

How the results depend on the processing

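No paired analysis was possible because there was only 1 library a condition. The 4 genes called higher kept their calls with scaling by median of ratios, upper quartile or total counts, at least 10 reads, the exact binomial test, an assumed coefficient of variation of 0.1, the nearest interval end and a q-value of 0.05. With an assumed coefficient of variation of 0.2, or with scaling by Ppia and Hprt (added after seeing the data), 2 genes were called, Plaur and Procr, and with 0.4 there were 0; the first and last settings add variation by construction, and Ppia and Hprt themselves had log2(fold-change) of 0.51 and 0.47. Of the other pathway genes, 0 were called higher with total counts, Ppia and Hprt, coefficients of 0.2 or 0.4 and the nearest interval end, so that Nos3 was lost, and 2 were called lower with Ppia and Hprt, Cd36 and Mmrn1. None of the 9 genes was called lower under any of these settings.

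Relative to TMM, the log2(fold-change) of each gene shifts by -0.21 with total counts and by -0.49 with Ppia and Hprt. The median of other pathway genes, 0.25, was 0.037 with total counts and with FPKM at either pseudocount, 0.20 with the upper quartile, 0.22 with at least 50 reads and -0.24 with Ppia and Hprt. The endothelial median, 0.39, was 0.18 with total counts and with FPKM at either pseudocount, 0.34 with the upper quartile, 0.44 with at least 50 reads and -0.10 with Ppia and Hprt. Of 54 values of the 9 genes under an alternative, 35 lay beyond the counting interval and 0 of the called genes changed sign. None of these settings measures how far mice differ.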

Other observations

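Marker reads of some other cell types differed between the libraries as well, and for others the interval of the sum held 0. Adipocyte markers, 4 of 4 with a read, summed to 346 reads in 5 mM K+ and 140 in 60 mM K+. Adipoq and Plin1 fell, from 97 to 44 and from 101 to 18 reads. Cidec had the most reads, 146 and 73, and Ucp1 went the other way with 2 and 5. Red cell markers, 4 matched of 5 and led by Hbb-b1 with 401 and 253 reads, summed to 843 and 507. Pancreas markers summed to 127 and 408 reads: Pnlip, Cela2a, Ctrb1 and Prss2 rose, and Cpb1, with 98 and 138 reads, was not called. Mesothelial markers, 4 of 7 of them at 0 in both libraries, summed to 23 and 24 reads, led by Krt18 with 19 and 18. Schwann cell markers summed to 1231 and 1058 reads, a log2(fold-change) of the sum of -0.12 (-0.24 to 0.0026). The part of these cell types in the values of the 9 genes was not tested.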
